A study of Mus musculus with 4 samples.

Results

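The genes described here are the vascular endothelial growth factor (VEGF) family ligands Vegfa, Vegfb, Vegfc and Pgf, the receptors Flt1 and Kdr, the coreceptors Nrp1 and Nrp2, and Adm, which encodes the peptide adrenomedullin. They were chosen by symbol, and all 9 were found among the 35976 gene rows of a table of raw read counts. Libraries came from E14, a line of mouse embryonic stem cells whose strain the labels spell 12910la, as 2 knockdown and 2 control libraries. The knockdown cells carry the genotype label "knocked down" for Lx8-SINE B2, an RNA whose name includes SINE B2, a family of short interspersed repeats. A pSuper puro plasmid supplied the short hairpin RNA. The controls are labelled wild type, and the insert of the vector they received, if any, is not given in the sources used here. A single protocol is attached to all samples: 1000 ng of plasmid was transfected, puromycin at 1 ug/ml was added 24 h later for 3 days, and the medium held 15% serum and 10 ng/ml mLIF, the cytokine that keeps these cells undifferentiated.

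VEGF ligands are secreted dimers that signal through receptor tyrosine kinases. VEGFA binds FLT1 and KDR, VEGFB and the placental growth factor PGF bind FLT1, and VEGFC binds FLT4 and, after processing, KDR. Neuropilins, encoded by Nrp1 and Nrp2, are coreceptors that also bind class 3 semaphorins. Vegfa and Adm are textbook targets of the hypoxia-inducible factor HIF, and Kdr marks mesodermal progenitors of blood and endothelium when embryonic stem cells differentiate.

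Total counts were 18592224 and 16383323 in the knockdown libraries and 19867689 and 19044832 in the controls. Separate cultures are not named in the labels, so p-values measure the spread between libraries only, and that spread may be technical. Both knockdown titles, and neither control title, hold the word batch, so an effect of batch cannot be told apart from one of the knockdown. No row was found under the name of the targeted RNA, and its level was not analysed here. Embryonic stem cell markers were abundant, with a summed level of 5846 and 6671 CPM (counts scaled to library size, with TMM factors) over 10 genes in the knockdown libraries and 7962 and 7871 CPM in the controls, and 1 of the 10, Tdgf1, was called lower in the knockdown cells (log2 fold change, knockdown over control, -1.19, edgeR adjusted p = 0.0437). That call was lost in 3 of 13 alternatives, with total counts only (edgeR adjusted p = 0.0585), without knockdown replicate 1 (0.131) and without knockdown replicate 2 (0.157). The most abundant of them, Pou5f1 and Dppa5a, stood at -0.24 and -0.77 on the log2 scale. Neither passed edgeR's quasi-likelihood test, while DESeq2 called Dppa5a.

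The sequences before the annotated start of the 6 genes with the smallest p-values are shown because 3 of them (Vegfa, Vegfb, Adm) were lower and 3 (Vegfc, Kdr, Nrp1) higher in both knockdown libraries than in both controls. Each is the 250 bases before the first listed RefSeq start (GRCm38.p6, the build of mm10), 5′ to 3′ on the strand of the gene. The window of Nrp1 lies inside the GENCODE M21 gene, which starts farther upstream, but in none of its exons. Capitals mark the letters ACGTG or GCGTG, the core of the element that HIF binds, on either strand, where the reverse complement of GCGTG reads CACGC and that of ACGTG reads CACGT.
Vegfa, chr17:46032378-46032627, minus strand: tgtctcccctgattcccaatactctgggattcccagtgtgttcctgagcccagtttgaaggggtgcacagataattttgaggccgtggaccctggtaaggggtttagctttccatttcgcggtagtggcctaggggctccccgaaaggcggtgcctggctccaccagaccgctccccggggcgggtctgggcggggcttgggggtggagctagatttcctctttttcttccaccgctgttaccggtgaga
Vegfb, chr19:6987652-6987901, minus strand: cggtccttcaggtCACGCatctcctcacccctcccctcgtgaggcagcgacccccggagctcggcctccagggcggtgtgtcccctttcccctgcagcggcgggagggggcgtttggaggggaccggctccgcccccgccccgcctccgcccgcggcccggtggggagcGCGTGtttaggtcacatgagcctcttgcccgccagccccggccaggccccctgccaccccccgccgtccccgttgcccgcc
Adm, chr7:110627407-110627656, plus strand: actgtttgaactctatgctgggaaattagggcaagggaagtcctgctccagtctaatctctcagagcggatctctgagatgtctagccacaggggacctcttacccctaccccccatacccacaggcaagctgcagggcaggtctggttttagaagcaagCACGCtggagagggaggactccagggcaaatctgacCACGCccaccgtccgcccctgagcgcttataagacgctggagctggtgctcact
Vegfc, chr8:54077282-54077531, plus strand: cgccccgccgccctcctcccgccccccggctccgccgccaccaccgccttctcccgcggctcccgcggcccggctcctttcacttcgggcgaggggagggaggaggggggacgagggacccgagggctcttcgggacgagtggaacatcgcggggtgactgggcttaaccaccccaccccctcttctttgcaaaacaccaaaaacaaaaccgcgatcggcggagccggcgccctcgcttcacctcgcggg
Kdr, chr5:75978456-75978705, minus strand: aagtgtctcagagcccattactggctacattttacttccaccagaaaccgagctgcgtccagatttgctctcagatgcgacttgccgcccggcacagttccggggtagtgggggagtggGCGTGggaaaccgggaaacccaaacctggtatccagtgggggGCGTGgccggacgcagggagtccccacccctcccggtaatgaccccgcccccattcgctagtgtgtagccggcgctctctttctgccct
Nrp1, chr8:128358823-128359072, plus strand: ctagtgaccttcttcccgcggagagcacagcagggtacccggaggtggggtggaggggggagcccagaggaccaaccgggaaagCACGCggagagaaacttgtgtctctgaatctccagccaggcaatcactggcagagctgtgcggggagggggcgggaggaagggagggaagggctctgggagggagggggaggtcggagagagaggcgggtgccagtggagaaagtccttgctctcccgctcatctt
Vegfb, Adm and Kdr each held 2 such cores, Nrp1 held 1, and the windows of Vegfa and Vegfc held none. The core was thus present on both sides, in 2 of the 3 genes that were lower and in 2 of the 3 that were higher. Vegfa and Pgf have a further start downstream in the RefSeq table, and the window of that Vegfa start, of which 218 bases are exon, held 2 cores. At the first start of all 9 genes 7 windows held a core, against 38.6% of 32851 windows of the same length, and 0 held the ACGTG form, against 16.6%. The Pgf window, which held a core, was GENCODE M21 exon of that gene over all its 250 bases. Every one of the 9 held the GC box GGGCGG on either strand (32.7% of all windows), and 0 held GGAATG, the core bound by TEAD factors (12.6%). These matches describe letters in a short window. The well-studied hypoxia response element of Vegfa lies farther upstream than this window.

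The question of the design was how the transcriptome differs between knockdown and control cells. In edgeR's quasi-likelihood test with Benjamini-Hochberg adjustment over 16209 genes, 0 of the 9 genes passed an adjusted p of 0.05, against 1.43% of all tested genes (0.876% in the higher and 0.555% in the lower direction). At an unadjusted p below 0.05 stood 6 of the 9, against 19.6% of all tested genes. Of these 6, 3 were higher in the knockdown cells (11% of all tested genes) and 3 lower (8.58%). With DESeq2, 3 were called (Kdr, Vegfc and Vegfa) where 6.83% of all genes were. With limma-voom, 1 was called (Kdr) where 1.49% were, and the edgeR likelihood ratio test called 5 (the same 3, Nrp1 and Adm) where 8.08% were. With the quasi-likelihood test but every gene of at least 1 count kept, 4 were called (Kdr, Nrp1, Vegfc and Vegfa) where 6.47% were. The groups did not overlap in 7 of the 9 genes, against 51.9% of all tested genes. Of these 7, 4 were higher in the knockdown cells (27.3% of all tested genes) and 3 lower (24.6%), and 1 of the 4 is Pgf, whose groups were close together.

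**Figure D1:**
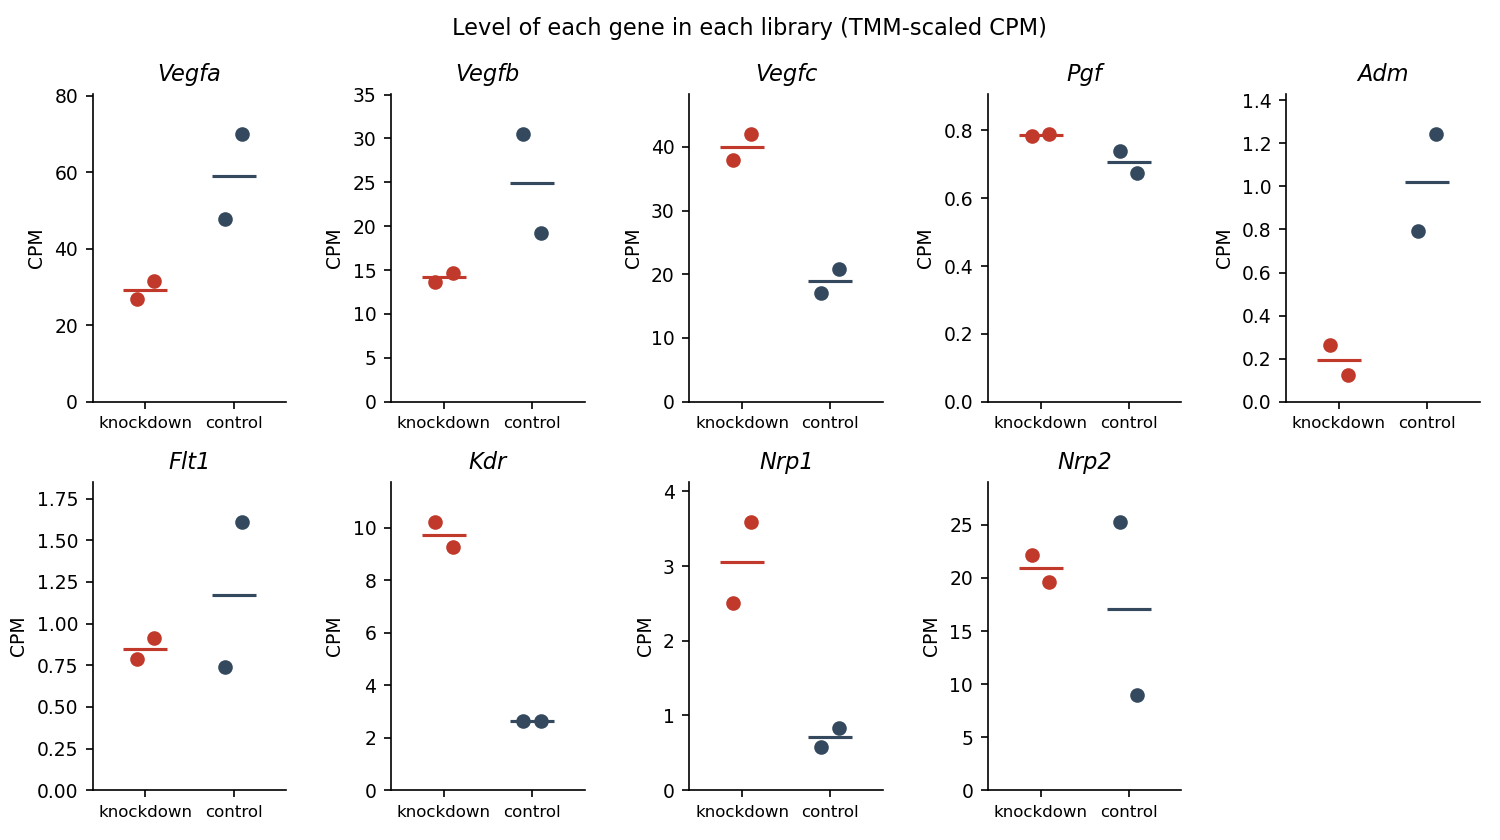
Level of each gene in CPM (vertical axis, from 0, a scale of its own for each gene) in the 2 knockdown and 2 control libraries. Points are libraries and lines are group means. The groups are apart for Vegfa, Vegfb, Vegfc, Adm, Kdr and Nrp1, close for Pgf and overlapping for Flt1 and Nrp2.

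Among the ligands, Vegfa had the highest counts in the controls. This gene, whose product drives vessel growth, lies on chromosome 17 from 46016993 to 46032369 (GENCODE M21, mm10). It stood at 26.8 and 31.6 CPM in the knockdown libraries, against 47.8 and 70.1 CPM in the controls. Both knockdown libraries were below both controls, and the controls themselves differed 1.47-fold. Knockdown over control gave a log2 fold change of -1.02 (standard error 0.24) and a 95% interval of -1.57 to -0.46, and it missed the threshold (edgeR adjusted p = 0.0795). Without control replicate 1, the lower of the controls, it was called at -1.27 (edgeR adjusted p = 0.029), and without control replicate 2 it was at -0.76 (edgeR adjusted p = 0.11). Over all 13 alternatives its adjusted p lay between 0.00161 and 0.246.

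Vegfb, on chromosome 19 from 6982473 to 6987651, encodes a ligand of FLT1 linked to lipid handling in muscle and heart. It was at 13.7 and 14.7 CPM in the knockdown libraries and at 30.5 and 19.2 CPM in the controls. The knockdown libraries were alike and below both controls, which differed 1.59-fold. This is a log2 fold change of -0.81 with a 95% interval of -1.48 to -0.14 (edgeR adjusted p = 0.18). It rested on 1 library in size, since it was -0.44 without control replicate 1 and -1.16 without control replicate 2, and it was called in 0 of 13 alternatives.

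Vegfc, on chromosome 8 from 54077606 to 54187096, encodes the main growth factor of lymphatic vessels. Its log2 fold change of 1.08 was opposite in sign to those of Vegfa and Vegfb. Its level was 37.9 and 42.1 CPM in the knockdown libraries, against 17.1 and 20.9 CPM in the controls. The lower knockdown library was 1.82-fold above the higher control, while libraries within a group differed at most 1.22-fold. Its standard error was 0.22 and its 95% interval ran from 0.56 to 1.59, and the gene missed the threshold (edgeR adjusted p = 0.0577). Leaving out any 1 library gave values from 0.94 to 1.18.

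Pgf, on chromosome 12 from 85166635 to 85177790, encodes placental growth factor. It was close to the filter on low counts, with 15 and 13 counts in the knockdown libraries and 14 and 13 in the controls. The levels were 0.785 and 0.790 CPM in the knockdown libraries and 0.740 and 0.674 CPM in the controls. The log2 fold change of 0.15 had a 95% interval of -1.12 to 1.43 (edgeR adjusted p = 0.907), so the interval includes a difference of 2-fold either way.

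In the make-up of the ligand counts the groups lay farthest apart for Vegfc. Vegfc took 47.9% of the counts of the 4 VEGF family ligands in knockdown replicate 1 (exact binomial 95% interval 45.4% to 50.5%) and 47.2% in knockdown replicate 2 (44.6% to 49.8%). In the controls it took 17.7% (16.02% to 19.6%) and 18.8% (17.2% to 20.5%). Vegfa took 33.8% and 35.4% in the knockdown libraries, against 49.7% and 63.2% in the controls. For each Vegfa count there were 1.42 and 1.33 Vegfc counts in the knockdown libraries and 0.357 and 0.298 in the controls. Vegfb took 17.3% and 16.5% in the knockdown libraries, against 31.8% and 17.4% in the controls, so control replicate 2 was close to the knockdown libraries. The exact interval of Vegfb was 15.4% to 19.25% in knockdown replicate 1 and 15.8% to 19.0% in control replicate 2, so these overlapped. Pgf took 0.991% and 0.887% in the knockdown libraries, against 0.769% and 0.608% in the controls, and its exact intervals overlapped between all libraries. The 4 shares of a library add up to the whole, so they are not separate results. The summed level of the 4 ligands was 79.2 and 89.1 CPM in the knockdown libraries and 96.2 and 110.9 CPM in the controls. With 2 libraries against 2 an exact two-sided permutation test cannot go below p = 0.333, which is the value of the Vegfc to Vegfa ratio. These intervals cover counting error only.

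**Figure D2:**
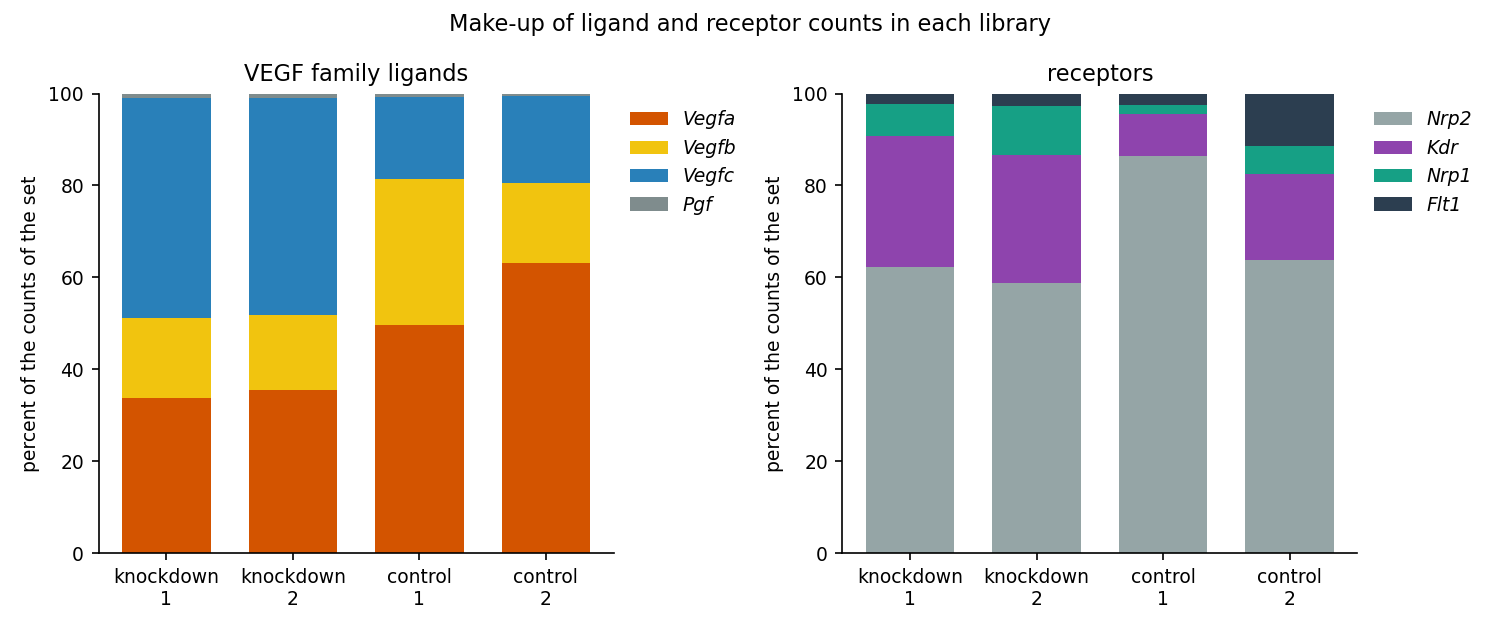
Share of each gene in the counts of the 4 VEGF family ligands (left) and of the 4 receptors and coreceptors (right), in percent, for each library. Vegfc fills 47.9% and 47.2% of the ligand bars of the knockdown libraries and under 19% of those of the controls, and Nrp2 is the largest segment of each receptor bar.

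Adm, on chromosome 7 from 110627661 to 110629820, encodes a vasodilator peptide that HIF induces. It had 5 and 2 counts in the knockdown libraries and 15 and 24 in the controls, which is 0.262 and 0.122 CPM against 0.793 and 1.25 CPM. Both knockdown libraries were below both controls, and the gene was tested only because the controls passed the filter on low counts. In the fit the log2 fold change was -2.35 with a 95% interval of -3.97 to -0.73 (edgeR adjusted p = 0.123). The ratio of summed counts per scaled library size was 0.193, with a counting interval of 0.0728 to 0.436. Leaving out 1 library moved the log2 fold change between -3.0 and -1.93, and no such fit called it.

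Among the receptors, Kdr differed most clearly. It encodes the main signalling receptor of VEGFA and lies on chromosome 5 from 75932827 to 75978458. It was at 10.2 and 9.24 CPM in the knockdown libraries, against 2.64 and 2.65 CPM in the controls. The lower knockdown library was 3.49-fold above the higher control, and libraries of a group differed by at most 1.10-fold. On the log2 scale the difference was 1.88 (standard error 0.35) with a 95% interval of 1.06 to 2.69. The edgeR adjusted p was 0.0503, just above the threshold, and over 13 alternatives it lay between 0.000615 and 0.0926 with values of 1.80 to 1.95. The counts behind these levels were 195 and 152 in the knockdown libraries and 50 and 51 in the controls.

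Flt1, on chromosome 5 from 147561604 to 147726011, encodes the other VEGFA receptor, which also has a soluble form that traps ligand. Counts per gene merge all isoforms, so the forms were not separated. It was at 0.785 and 0.912 CPM in the knockdown libraries and at 0.740 and 1.61 CPM in the controls. The groups overlapped, and the controls differed 2.17-fold. A log2 fold change of -0.47 had a 95% interval of -1.83 to 0.90 (edgeR adjusted p = 0.713), and the value was 0.14 without control replicate 2. For each Flt1 count there were 13 and 10.1 Kdr counts in the knockdown libraries and 3.57 and 1.65 in the controls.

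The coreceptor genes are given side by side, and a difference between their fold changes was not tested. Nrp1, on chromosome 8 from 128358604 to 128503363, was at 2.51 and 3.59 CPM in the knockdown libraries, against 0.581 and 0.830 CPM in the controls. Both knockdown libraries were above both controls, with 48 and 59 counts against 11 and 16. This gave a log2 fold change of 2.10 (standard error 0.52) and a 95% interval of 0.91 to 3.29 (edgeR adjusted p = 0.0843). Its exons share 80 bases with the microRNA gene Mir1903 on the same strand, and no other gene of the 9 shares exon bases with another annotated gene. Nrp2, on chromosome 1 from 62703285 to 62818695, was at 22.2 and 19.6 CPM in the knockdown libraries and at 25.3 and 8.92 CPM in the controls. Here the controls differed 2.83-fold and the knockdown libraries lay between them. The log2 fold change of Nrp2 was 0.29 (95% interval -0.72 to 1.30, edgeR adjusted p = 0.762), and it was 1.23 without control replicate 1 and -0.32 without control replicate 2. For each Nrp2 count there were 0.113 and 0.183 Nrp1 counts in the knockdown libraries and 0.023 and 0.093 in the controls.

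**Figure D3:**
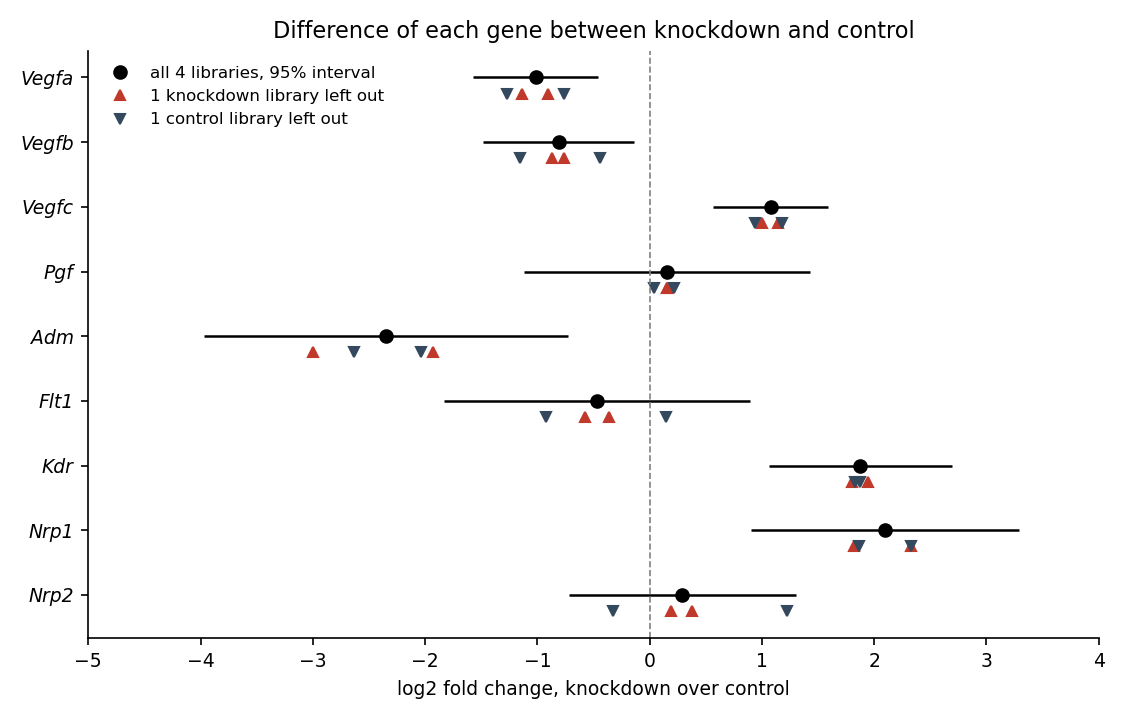
Log2 fold change of each gene, knockdown over control (horizontal axis). Black points with lines are the fit on all 4 libraries with its 95% interval, and triangles are fits that leave out 1 library. The intervals of Vegfa, Vegfb, Vegfc, Adm, Kdr and Nrp1 do not reach 0 before adjustment over all genes, and the points of Nrp2 and Flt1 fall on both sides of 0 when a control is left out.

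Levels were compared between genes per kilobase of exon (union of the exons in GENCODE M21). In the knockdown libraries the order was Vegfc at 16.3 ± 1.2, Vegfb at 8.84 ± 0.47, Vegfa at 6.81 ± 0.79, Nrp2 at 1.77 ± 0.15 and Kdr at 1.08 ± 0.075 CPM per kilobase (SD, n = 2). Nrp1 at 0.312 ± 0.078, Pgf at 0.271 ± 0.0014, Adm at 0.118 ± 0.061 and Flt1 at 0.0628 ± 0.0067 CPM per kilobase followed. Of these neighbours, Nrp1 and Pgf overlapped in their library values. In the controls the order was Vegfb at 15.5 ± 4.98, Vegfa at 13.8 ± 3.67, Vegfc at 7.74 ± 1.09, Nrp2 at 1.44 ± 0.98 and Adm at 0.629 ± 0.20 CPM per kilobase. Kdr at 0.293 ± 0.00030, Pgf at 0.244 ± 0.016, Flt1 at 0.0869 ± 0.045 and Nrp1 at 0.0721 ± 0.018 CPM per kilobase followed. Here Vegfb and Vegfa, Nrp2 and Adm, and Flt1 and Nrp1 overlapped. Vegfc thus ranked 1 among the 9 in the knockdown libraries and 3 in the controls, and in both groups the 3 most abundant transcripts were ligands. With the longest transcript as length, Flt1 and Nrp1 changed places in the controls and no other rank differed.

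The genes most like Vegfb, which had the highest mean level per kilobase over all 4 libraries among the 5 ligand genes described here, were Gm2274, Ifi30 and Kifc3, at distances of 0.0978, 0.118 and 0.121 between centred log2 CPM profiles over 4 libraries, out of 11055 genes. Ifi30, for example, was at 22.7 and 25.4 CPM in the knockdown libraries and at 47.6 and 30.3 CPM in the controls. For Nrp2, the highest by the same mean among the 4 receptor and coreceptor genes described here, they were Eya1, Sorcs2 and Dnmt3l, at distances of 0.0642, 0.171 and 0.194. Dnmt3l, a cofactor of DNA methyltransferases, was at 678.9 and 566.5 CPM in the knockdown libraries and at 813 and 239.9 CPM in the controls. The profile that Nrp2 shared with these genes is mainly the gap between the controls.

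Other genes that act with this family were taken from lists, and each list is set beside the median log2 fold change over all tested genes, which was 0.01. Calls below are those of edgeR's quasi-likelihood test unless another tool is named. That test called 0.876% of all tested genes higher and 0.555% lower, and 19.6% stood at an unadjusted p below 0.05. DESeq2 called 6.83% of all tested genes, the likelihood ratio test 8.08% and limma-voom 1.49%. The counts of each list, cell markers included, stand beside these shares. Of 7 tested genes for the other VEGF and the related PDGF ligands and receptors 0 were called, with a median of 0.20. At an unadjusted p below 0.05 stood 4 of them, DESeq2 called 1, the likelihood ratio test 2 and limma-voom 0. Flt4, the receptor of VEGFC, was at 18.6 ± 2.00 CPM in the knockdown libraries and 21.0 ± 5.28 CPM in the controls (SD, n = 2 each), with a log2 difference of -0.17 (edgeR adjusted p = 0.78). Pdgfa, a PDGF ligand, had one of 0.82 (edgeR adjusted p = 0.122).

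Semaphorins and plexins, which use neuropilins for axon guidance, had 0 of 10 called and a median of -0.21. Of the 10, 3 were at an unadjusted p below 0.05, against 19.6% of all tested genes. DESeq2 and the likelihood ratio test each called 1, Plxna3, and limma-voom 0. The plexin genes Plxna1 and Plxna3 were the most abundant, with log2 fold changes of 0.65 and -0.82. Of 5 tested adrenomedullin partners 0 were called, with a median of -0.21 and 1 at an unadjusted p below 0.05, and DESeq2, limma-voom and the likelihood ratio test also called 0. Ramp3, a subunit of the adrenomedullin receptor, and Pam, which amidates the peptide, were at -0.21 and -0.49. Calcrl, the core of that receptor, is named after its values were seen because it was too low to be tested, with 3 and 3 counts in the knockdown libraries and 0 and 2 in the controls.

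Of 17 tested genes for signalling below VEGF receptors 1 fell and 0 rose, against 0.555% and 0.876% of all tested genes, with a median of 0.01. Of the 17, 4 were at an unadjusted p below 0.05, against 19.6% of all tested genes. The gene that fell was Mapk3, which encodes ERK1, at 46.0 and 31.3 CPM in the knockdown libraries and 123 and 89.0 CPM in the controls. The log2 difference was -1.46 (standard error 0.25, edgeR adjusted p = 0.0423), and it missed the threshold without control replicate 1 at -1.20 (edgeR adjusted p = 0.0533), without knockdown replicate 2 at -1.21 (edgeR adjusted p = 0.112) and with total counts as the scaling at -1.40 (edgeR adjusted p = 0.0573). Over its 13 alternatives the adjusted p was 5.24e-08 to 0.112. The small heat shock protein gene Hspb1 was at 0.78 and was not called. DESeq2 and the likelihood ratio test each called 2 genes of this list, Mapk3 and Nos3, and limma-voom called Mapk3.

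Among 13 tested genes for other angiogenic factors 1 rose and 0 fell, against 0.876% and 0.555% of all tested genes, with a median of 0.37. Of the 13, 6 were at an unadjusted p below 0.05, against 19.6% of all tested genes. Eng, which encodes endoglin, a coreceptor for TGF-beta family ligands on endothelium, was at 163 and 156 CPM in the knockdown libraries and at 69.0 and 37.5 CPM in the controls. The log2 difference was 1.58 (standard error 0.28, edgeR adjusted p = 0.0436), and the call was lost in 1 of 13 alternatives, with RLE size factors at 1.55 (edgeR adjusted p = 0.052, where the others were as low as 1.08e-09). Notch1 was at 0.77 and not called. DESeq2 called 2 genes of this list, Eng and the receptor gene Tek, the likelihood ratio test 3 (these and Notch1) and limma-voom Eng alone.

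HIF subunits and oxygen sensors had a median of 0.26 over 10 tested genes, of which 1, Egln3, fell. Egln3 was at 6.17 and 4.50 CPM in the knockdown libraries and at 27.7 and 24.7 CPM in the controls. Its log2 fold change was -2.29 (edgeR adjusted p = 0.0173). At an unadjusted p below 0.05 stood 6 of the 10, against 19.6% of all tested genes. DESeq2 called 2 lower, Egln3 and Hif3a, and the likelihood ratio test also called Epas1 higher, while limma-voom called Egln3 alone. Arnt, the shared HIF subunit, was at -0.21 and Hif1an, an asparaginyl hydroxylase that restrains HIF, at 0.52. At an unadjusted p below 0.05 stood 13 of 18 tested HIF targets outside angiogenesis, against 19.6% of all tested genes. Their median was -1.05, with 5 called lower and 0 higher, against 0.555% and 0.876% of all tested genes. Those 5 were Bnip3 at -2.64, Ndrg1 at -1.82, Pgk1 at -2.05, Ldha at -1.70 and Aldoc at -3.23, while the abundant aldolase gene Aldoa was at -1.06 and not called (edgeR adjusted p = 0.0818). The count depended on the tool. DESeq2 called 9 lower, among them Aldoa (DESeq2 adjusted p = 0.00191), and 1 higher. The likelihood ratio test called 8 and 1, limma-voom 6 and 0, and the quasi-likelihood test with every gene kept 11 and 1. The gene called higher was Ddit4 each time, with a log2 fold change of 0.71 in the main fit (edgeR adjusted p = 0.074).

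**Figure D4:**
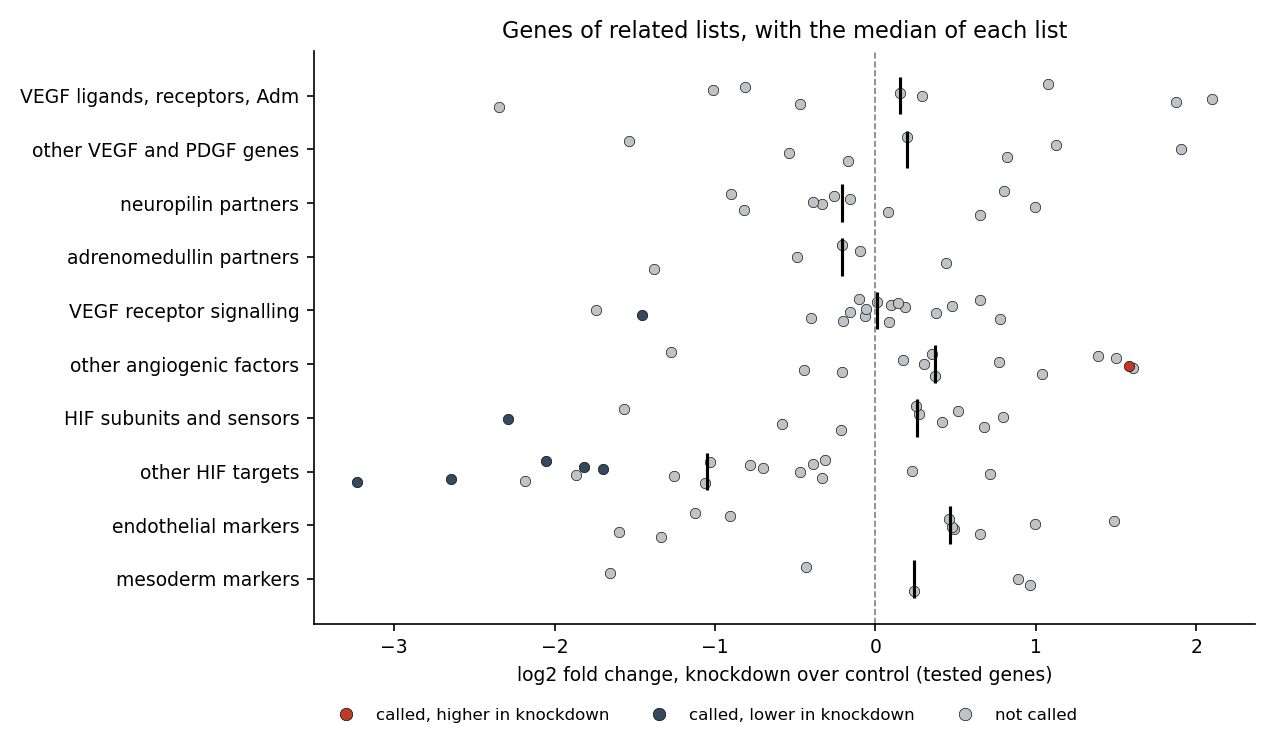
Log2 fold change, knockdown over control (horizontal axis), of each tested gene in the VEGF set and in related lists, with the median of each list as a vertical line. Of these lists the other HIF targets have the lowest median, -1.05, and hold 5 of the called genes.

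Kdr and Nrp1 are also expressed in endothelium and mesoderm, so markers of those cells are given beside them. Of 10 tested endothelial markers 0 were called, with log2 fold changes from -1.60 to 1.48 and a median of 0.47. At an unadjusted p below 0.05 stood 4, against 19.6% of all tested genes. DESeq2 and the likelihood ratio test each called 1 (Vwf, lower), and limma-voom 0. The quasi-likelihood test called 2 with every gene kept (Vwf, lower, and Robo4, higher) and 1 with the replicate block (Robo4, higher). The sum of the endothelial markers was 154.8 and 252.6 CPM in the knockdown libraries and 149.6 and 150.7 CPM in the controls. Pecam1, which embryonic stem cells also express, was at 64.8 and 189.5 CPM in the knockdown libraries and at 78.5 and 104.1 CPM in the controls. Without Pecam1 the sum was 90.0 and 63.1 CPM against 71.1 and 46.6 CPM, so the groups overlapped. Pecam1 and Robo4, the most abundant of these markers, had log2 fold changes of 0.48 and 0.99. The defining endothelial genes Cdh5 and Emcn, named after their values were seen, had 5 and 30 counts and 0 and 0 counts in the knockdown libraries, against 2 and 8 and 0 and 0 in the controls. Of 5 tested mesoderm markers 0 were called (1 at an unadjusted p below 0.05, and 0 by DESeq2, limma-voom and the likelihood ratio test). Their median was 0.24, with 3 values above 0 and 2 below. The sums were 13.6 and 20.9 CPM in the knockdown libraries and 15.4 and 14.5 CPM in the controls. Eomes and Hand1 were at 0.24 and 0.97. The marker at an unadjusted p below 0.05 was T, named after its values were seen, and it was lower, at -1.66. T had 5 and 4 counts in the knockdown libraries and 14 and 17 in the controls. Trophoblast markers, given because Pgf is a placental gene, had 0 of 5 called and 2 at an unadjusted p below 0.05. Their sums were 36.4 and 38.7 CPM in the knockdown libraries and 36.9 and 35.1 CPM in the controls. Tfap2c, which made up most of each sum, and Esx1 were at -0.01 and -1.67. The median of 0.97 is the value of Hand1, which stands in this list and in the mesoderm list. Hand1 had 11 and 57 counts in the knockdown libraries and 24 and 15 in the controls, so the groups overlapped. Without knockdown replicate 2 it was at -0.82. Gata3, named after its values were seen, was at 3.14 and 2.80 CPM in the knockdown libraries and at 0.476 and 0.467 CPM in the controls. Its counts were 60 and 46 in the knockdown libraries and 9 and 9 in the controls. Thus Gata3 was tested only because the knockdown libraries passed the filter on low counts. The log2 fold change of Gata3 was 2.64 (edgeR adjusted p = 0.0527). It was called by DESeq2 (adjusted p = 0.0136), which called no other gene of this list, and not by limma-voom, while the likelihood ratio test called Gata3 and Esx1. Fibroblast markers had 0 of 4 called (2 at an unadjusted p below 0.05, 1, Thy1, by DESeq2 and by the likelihood ratio test, 0 by limma-voom) and sums of 15.1 and 17.4 CPM in the knockdown libraries and 20.6 and 20.9 CPM in the controls, with Thy1 and Twist1 at -1.64 and 1.00. The part of other cells in the levels of Kdr and Nrp1 was not tested. In bulk samples fewer cells of a type and less RNA per cell cannot be told apart.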

How the data were processed

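Libraries were made from DNase-treated RNA with the VAHTS mRNA-seq V2 kit, per the labels' protocols. Raw read counts by gene symbol were deposited by the authors as 1 table. The submitters' processing notes name cutadapt, HISAT2, featureCounts and the build mm10. Not given in the sources used here are versions, annotation, strand setting and the handling of multi-mapping reads. Of 36068 rows, 92 spike-in rows with 0 counts were left out. Counts differed within the knockdown pair and the control pair by more than sampling noise (chi-square over degrees of freedom 14.4 and 30.8), and each library is 1 replicate.

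The filter filterByExpr of edgeR 4.0.16 (R 4.3.3) left 16209 genes, which were scaled by TMM. The groups were compared with the edgeR quasi-likelihood F-test with no other term, and Benjamini-Hochberg adjustment ran over these genes. Called means an adjusted p below 0.05. Standard errors are the absolute log2 fold change over the root of F. Alternatives were DESeq2 1.42.0, limma-voom (limma 3.58.1), edgeR's likelihood ratio test, a block for the replicate number, 3 further scalings, 2 further filters and leaving out each library. Positions and lengths come from GENCODE M21 and sequences from RefSeq.

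Members, lists and tests were chosen with earlier results of these data known. The genes named are the 9 members, the called genes and the 2 most abundant tested genes of each other list, and the 3 most like profiles of a ligand and a receptor. A gene that this rule names is not reported here and was counted within its list. Genes named beside the calls of another tool or filter, and other genes marked so in the text, were chosen after their values were seen.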

Additional observations from a re-analysis of the deposited data

How the results depend on the processing

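The direction of Vegfa, Vegfb, Vegfc, Pgf, Adm, Kdr and Nrp1 was the same in every alternative that gave a value. The count of called members, 0 higher and 0 lower, became 3 and 1 with every gene of at least 1 count kept, 2 and 1 with DESeq2, 3 and 2 with the likelihood ratio test, and 1 higher with limma-voom. Without 1 library it ranged from 0 to 0 higher and from 0 to 1 lower, where the 1 is Vegfa without control replicate 1. Over all genes the counts of 142 higher and 90 lower became 996 and 721 with every gene kept, 617 and 490 with DESeq2, 796 and 514 with the likelihood ratio test, and 57 lower with total counts only. Without 1 library they ranged from 108 to 389 higher and from 45 to 198 lower. With the replicate block, 2 members were called higher and 1 lower (Kdr, Vegfc and Vegfa, where 4.05% of genes were called), and over all genes 428 higher and 228 lower. Same-numbered libraries share only a number, and the correlation of their deviations from the group means was -0.0568. The cause of these differences was not tested.

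Some genes that were not called turned sign when 1 library was left out. Over these fits Flt1 ranged from -0.92 to 0.14, Nrp2 from -0.32 to 1.23, Flt4 from -0.41 to 0.062, Pecam1 from -0.49 to 1.05, Eomes from -0.047 to 0.48, Hand1 from -0.82 to 1.75 and Tfap2c from -0.14 to 0.074. Tfap2c was also at 0.044 with total counts only and at 0.0015 with a filter of 1 CPM. A group left with 1 library takes its spread from the other group. The number of libraries limits the precision for abundant genes, and counting error adds to it for Pgf, Adm and Flt1.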

Other observations

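Further angiogenic genes are named here after their values were seen, and edgeR's quasi-likelihood test called none of them in the main fit. With every gene of at least 1 count kept, where 6.47% of all genes were called, that test called Tek, Nos3, Edn1 and Thbs1. Their edgeR adjusted p was 5.41e-07, 3.17e-05, 0.0323 and 0.0463. With the replicate block, where 4.05% were called, it called Tek and Nos3 (edgeR adjusted p = 0.00484 and 0.0169). DESeq2 and the likelihood ratio test each called 2 of them, Tek (DESeq2 adjusted p = 0.000412) and Nos3 (DESeq2 adjusted p = 0.003), and limma-voom called none. Tek, which encodes the angiopoietin receptor TIE2, was at 85.6 and 48.95 CPM in the knockdown libraries and at 27.8 and 19.8 CPM in the controls, with a log2 difference of 1.5 (edgeR adjusted p = 0.0566). Its ligand gene Angpt2 was at 1.04 (edgeR adjusted p = 0.243), the endothelin gene Edn1 at 1.6 (edgeR adjusted p = 0.169) and the thrombospondin gene Thbs1, whose product inhibits vessel growth, at 1.39 (edgeR adjusted p = 0.182). In each of these genes both knockdown libraries were above both controls, as in 27.3% of all tested genes. The other TIE receptor gene, Tie1, was at -1.28 (edgeR adjusted p = 0.303). Epo, the HIF target gene for erythropoietin, was too low to be tested, with 0 and 0 counts in the knockdown libraries, which allows levels of up to 0.157 and 0.182 CPM by counting error alone, and 5 and 5 counts in the controls. Nos3, which encodes endothelial nitric oxide synthase, was at -1.74 (edgeR adjusted p = 0.0908), with 149 and 77 counts in the knockdown libraries and 546 and 250 in the controls.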
